A study of Mus musculus with 6 samples.

Results

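The proteasome genes of the mouse heart were compared between hearts with and without a deletion of Mrps5, which encodes a protein of the mitochondrial ribosome. The members were all protein-coding genes of the deposited table whose symbol is Psm, followed by a letter from a to g and a digit. This rule gave 50 genes of the 54532 in the table. RNA was sequenced from the hearts of 6 tamoxifen-treated mice. The 3 control hearts (Ctrl) were Mrps5 fl/fl, that is, with loxP sites around Mrps5. The 3 knockout hearts (cKO) were Mrps5 fl/fl and carried MCM, the tamoxifen-inducible MerCreMer recombinase, driven by the αMHC promoter and so active in cardiomyocytes. All 6 mice received 45 mg of tamoxifen per kg per day for 5 days from 8 weeks of age, and the labels place tissue collection 12 weeks after injection, whereas the study's methods give the age of the mice as 12 weeks. The Ctrl mice lacked MCM, so effects of the transgene and of the Mrps5 deletion cannot be told apart. The RNA came from whole tissue, described in the study's methods as ventricular, so fewer cells of a type and less RNA per cell cannot be told apart either.

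The proteasome is the main protease of the cytosol and nucleus, and it degrades proteins that carry ubiquitin chains. Its 20S core is a barrel of alpha rings, which gate the entrance, around beta rings, which hold the catalytic sites. The 19S cap binds and unfolds substrates. Its base carries a ring of ATPases, and its lid removes ubiquitin. In cells exposed to interferon, Psmb8, Psmb9 and Psmb10 replace the constitutive catalytic subunits Psmb5, Psmb6 and Psmb7, and the resulting immunoproteasome produces peptides for presentation on MHC class I. Separate chaperones assemble the core (Psmg genes) and the base (Psmd5, Psmd9 and Psmd10). In the heart the proteasome takes part in the turnover of sarcomere and other muscle proteins.

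Mrps5 reached 5.20, 6.45 and 6.33 FPKM in the control group and 1.12, 1.23 and 1.31 FPKM in the knockout group, so each library matched its label (FPKM is the number of fragments per kilobase of gene, scaled to library size). Between 15989322 and 24875499 reads per heart were assigned to genes. cKO replicate 2 stood apart from the other hearts. It had 32.2 FPKM of the interferon-induced gene Irf7, against 1.55 to 2.85 FPKM in the other 5 hearts. It was also the only heart with the Y-linked genes Ddx3y, Uty, Kdm5d and Eif2s3y at 0 and with Xist at 10.7 FPKM. The study describes its animals as male. Results that rest on this heart are given with and without it. The summed FPKM of 8 cardiomyocyte markers was 16943 to 20703 in Ctrl and 9682 to 16372 in cKO hearts, and 6 of the 8 were lower in cKO. Of 6 endothelial markers, 4 were lower, with sums of 128.7 to 152.9 in Ctrl and 92.8 to 101 in cKO hearts. Of 7 leukocyte and macrophage markers tested, 1 was lower and the others did not pass the threshold, and the sum of all 8 was 250 to 335 in Ctrl and 193 to 289 in cKO hearts. Of 6 fibroblast markers, 2 were higher and 1 was lower. Of 3 smooth muscle markers tested, 1 was higher. The 3 erythroid and 3 atrial markers did not pass the threshold, and the atrial sum ranged from 25.2 to 990 in Ctrl and from 105 to 714 in cKO hearts. The part of these marker differences in the proteasome results was not tested.

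More proteasome genes were called higher than lower in cKO hearts, although most did not pass the threshold. Of the 50 members, 48 had a mean of at least 0.5 FPKM and were tested. At an adjusted p below 0.05, 20 members (41.7%) were higher and 2 (4.17%) were lower in cKO, and 26 did not pass the threshold. Among all 12944 genes tested, 33.3% were called, 16.3% as higher and 17.0% as lower. The share of members called higher was thus above the background and the share called lower was below it. The median log2 fold change of the members was 0.18, against -0.02 over all genes tested. In 26 members all 3 cKO hearts lay above all 3 Ctrl hearts, which was the case for 24.8% of all genes, and in 2 members they all lay below, against 26.4% of all genes. Most changes were small, and Psmd8 was the only tested member with a ratio of mean FPKM above 2, at 2.27. The counts fell when certain single hearts were left out, for the members and for all genes alike. Without Ctrl replicate 1, 13 members were called higher, and 1451 of all genes, against 2110 with all hearts. No member was called lower without Ctrl replicate 2 or Ctrl replicate 3. Of all genes, 1434 and 1450 were then lower, against 2205 with all hearts.

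**Figure D1:**
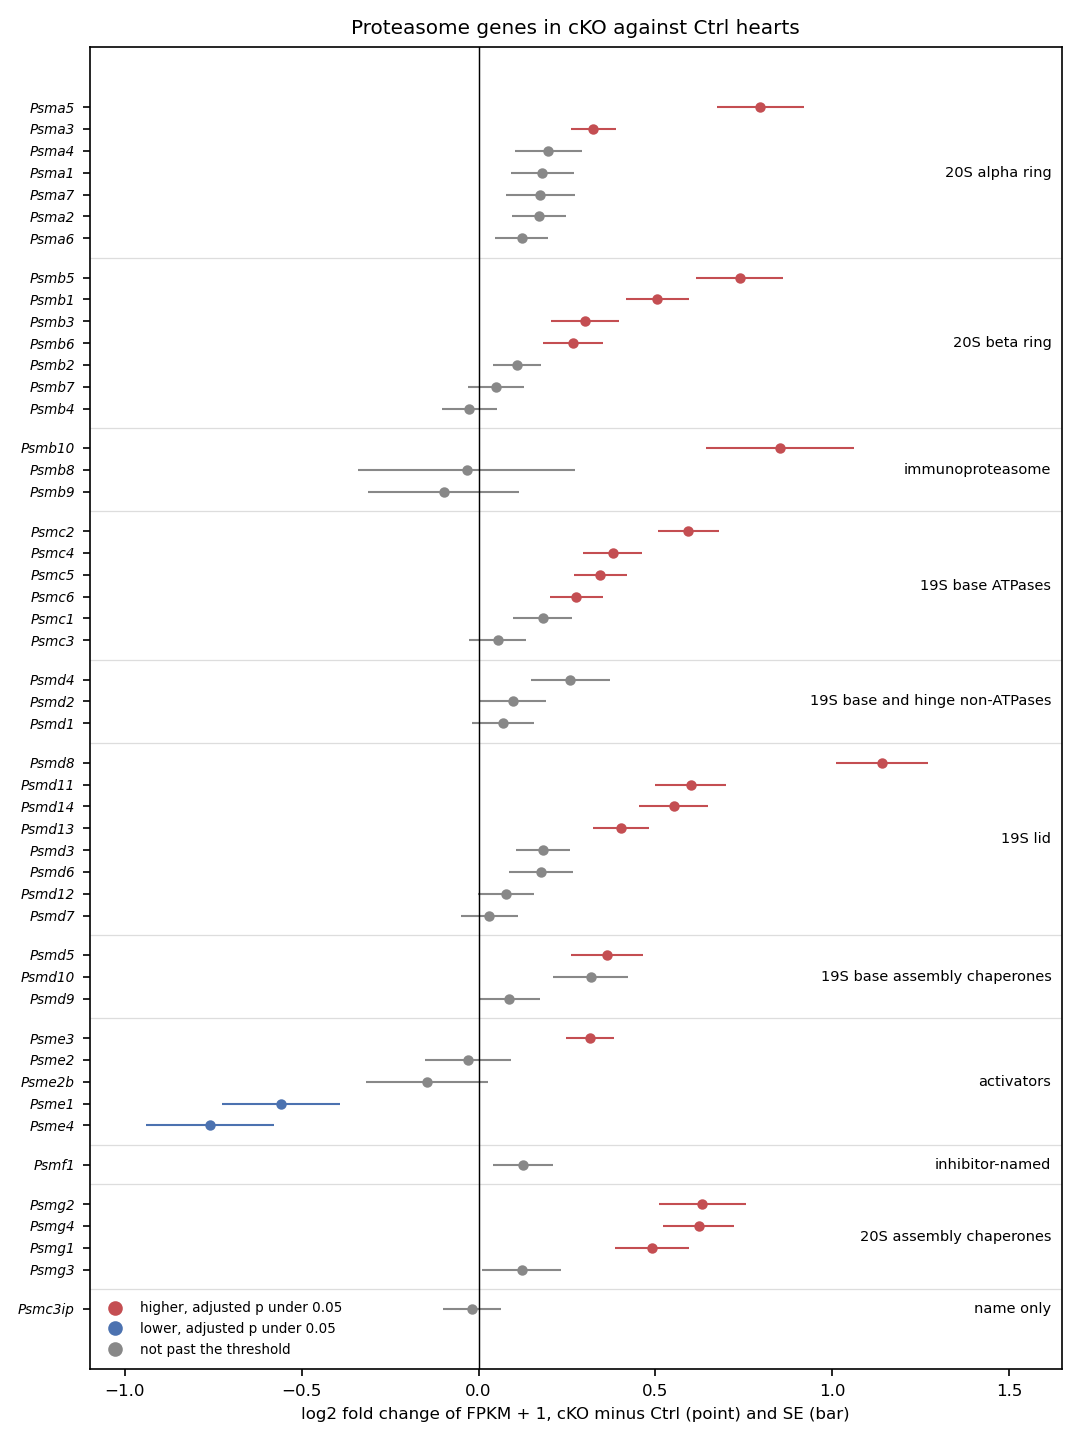
Log2 fold change of FPKM + 1, cKO minus Ctrl (x axis), of the 48 tested members, grouped by role (y axis). Points are the estimates from 3 hearts per group and bars are SE, with red for higher, blue for lower and grey for not past the threshold. Most points lie to the right of 0, up to 1.14 for Psmd8, and the 2 blue points are the activators Psme1 and Psme4.

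Of the 31 members that encode constitutive subunits of the 20S core and 19S cap, 14 were higher in cKO and 17 did not pass the threshold. The cap genes Adrm1 and Sem1 do not match the symbol rule and are given with the associated genes. The fold change was positive in 30 of the 31 members, whether called or not, and negative in Psmb4. By limma 0 were lower, at the adjusted threshold as well as at an unadjusted p below 0.05, and voom on recovered reads also gave 0. The summed level of the 31 genes was 1302, 1371 and 1264 FPKM in Ctrl and 1734, 1518 and 1590 FPKM in cKO hearts. The groups did not overlap, and the ratio of the means was 1.23. The order of the cKO hearts was uneven. Among the 20 members called higher, cKO replicate 1 was the highest of the 3 cKO hearts in 17 and cKO replicate 2 was the lowest in 13. Among all 2110 genes called higher, cKO replicate 1 was the highest cKO heart in 61.3% and cKO replicate 2 the lowest in 37.0%.

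The alpha ring of the 20S core consists of Psma1 to Psma7, and 2 of these genes rose. Psma5, which encodes the alpha5 subunit, had 36.3, 36.9 and 30.9 FPKM across Ctrl and 71.4, 56.3 and 55.9 FPKM across cKO replicates. All cKO hearts were well above the Ctrl range (log2 fold change 0.80, SE 0.12, adjusted p = 0.00419). Psma3 measured 17.3, 17.8 and 17.4 FPKM in Ctrl against 22.9, 21.4 and 22.4 FPKM in cKO hearts. The spread within each group was narrow, and the log2 fold change was 0.33 (SE 0.06, adjusted p = 0.0102). Psma3 overlaps a gene on the opposite strand, 3110056K07Rik, whose mean level was 1.06 FPKM. The smallest change was that of Psma6, the member with the highest mean level in Ctrl hearts, with 108, 117 and 111 FPKM in Ctrl and 123, 116 and 128 FPKM in cKO hearts. These groups overlapped (log2 fold change 0.12, SE 0.07, adjusted p = 0.248). The other 4 genes, Psma1, Psma2, Psma4 and Psma7, had log2 fold changes of 0.17 to 0.20 and did not pass the threshold.

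In the beta ring, which contains the proteolytic sites, 4 of 7 genes rose. Psmb5 (ENSMUSG00000022193, chromosome 14, 54614119 to 54618022, minus strand), which encodes the chymotrypsin-like site, reached 99.2, 96.0 and 98.3 FPKM in the control group and 195, 140 and 161 FPKM in the knockout group. The Ctrl hearts were nearly equal, and the lowest cKO heart, replicate 2, was still far above them (log2 fold change 0.74, SE 0.12, adjusted p = 0.00565). Psmb1, a structural beta subunit without catalytic activity, had 21.7, 24.4 and 20.1 FPKM across Ctrl and 32.9, 30.04 and 32.0 FPKM across cKO replicates. The groups were separate (log2 fold change 0.51, SE 0.09, adjusted p = 0.00668). Psmb3 and Psmb6, the latter encoding the caspase-like site, passed the threshold narrowly, with log2 fold changes of 0.30 and 0.27 and adjusted p of 0.0489 and 0.0481. Each was called under 6 of 14 alternative analyses, and the call was lost when any heart other than Ctrl replicate 2 was left out. Both genes also lost their calls with no filter, without the trend in eBayes and with a replicate block. Without cKO replicate 2 their adjusted p were 0.0581 and 0.0741, and the highest were 0.1479 and 0.1487, without Ctrl replicate 3. Psmb7, which encodes the trypsin-like site, had 28.8, 32.1 and 30.1 FPKM in Ctrl and 33.4, 29.7 and 31.2 FPKM in cKO hearts, and these ranges overlapped (log2 fold change 0.05, SE 0.08, adjusted p = 0.659). The catalytic subunits therefore had unequal estimates, although the differences between them were not tested. Psmb4 had the smallest change, with 66.9, 74.1 and 66.3 FPKM in Ctrl and 71.6, 65.4 and 66.5 FPKM in cKO hearts (log2 fold change -0.03, SE 0.08, adjusted p = 0.826). Psmb2, the remaining gene, was estimated at 0.11 on the log2 scale (SE 0.07, adjusted p = 0.262).

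The 6 ATPases of the 19S base, which thread substrates into the core, included 4 that rose. Psmc2, which encodes Rpt1, measured 19.7, 21.3 and 19.7 FPKM in Ctrl against 34.3, 29.0 and 30.03 FPKM in cKO hearts. The cKO values were all above the Ctrl values (log2 fold change 0.59, SE 0.09, adjusted p = 0.00347). Psmc4, which encodes Rpt3, reached 34.0, 35.7 and 34.5 FPKM in the control group and 50.2, 42.3 and 44.3 FPKM in the knockout group, again without overlap (log2 fold change 0.38, SE 0.08, adjusted p = 0.0142). It was not called without Ctrl replicate 1 (adjusted p = 0.0509). Psmc5 and Psmc6 rose by 0.34 and 0.28 on the log2 scale. Psmc5 was called under all 14 alternative analyses but Psmc6 under 8, and Psmc6 lost its call with a replicate block and when any heart other than cKO replicate 2 was left out (adjusted p up to 0.1016). Psmc3 changed least, with 74.6, 80.8 and 71.4 FPKM in Ctrl and 81.1, 73.8 and 80.5 FPKM in cKO hearts (log2 fold change 0.05, SE 0.08, adjusted p = 0.635). Psmc1 had a log2 fold change of 0.18 and did not pass the threshold.

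None of the 3 members for non-ATPases of the base passed the threshold with all 6 hearts. By limma 0 had an unadjusted p below 0.05, and by voom 0 were called. Psmd4, which encodes the ubiquitin receptor Rpn10, had 34.8, 34.2 and 30.8 FPKM across Ctrl and 44.7, 34.4 and 41.5 FPKM across cKO replicates. Replicate 2 fell inside the Ctrl range (log2 fold change 0.26, SE 0.11, adjusted p = 0.115). Without it the log2 fold change of Psmd4 was 0.36, with an adjusted p of 0.0255. Psmd2 and Psmd1, which encode the scaffold proteins Rpn1 and Rpn2, had log2 fold changes of 0.10 and 0.07. Their groups overlapped, with adjusted p of 0.458 and 0.575.

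The largest change of any member was in the 19S lid, where 4 of 8 members rose. Psmd8 (ENSMUSG00000030591, chromosome 7, 29174188 to 29180701, minus strand), which encodes the lid subunit Rpn12, measured 25.8, 27.2 and 23.0 FPKM in Ctrl against 67.3, 48.3 and 56.7 FPKM in cKO hearts. The lowest cKO heart was far above the highest Ctrl heart (log2 fold change 1.14, SE 0.13, adjusted p = 0.00184). Psmd11, which encodes Rpn6, reached 13.8, 12.6 and 12.6 FPKM in the control group and 23.1, 19.7 and 18.2 FPKM in the knockout group, without overlap (log2 fold change 0.60, SE 0.10, adjusted p = 0.00575). Psmd14, which encodes the deubiquitinase Rpn11, and Psmd13, which encodes Rpn9, rose by 0.55 and 0.40 on the log2 scale (adjusted p = 0.00677 and 0.0102). Psmd13 overlaps Sirt3 on the opposite strand and Gm15542 on its own strand, with mean levels of 5.33 and 4.10 FPKM. The lid genes were far from uniform. Psmd7, which encodes Rpn8, the partner of Rpn11 in the lid, had 60.6, 58.7 and 57.7 FPKM across Ctrl and 64.7, 55.5 and 61.0 FPKM across cKO replicates (log2 fold change 0.03, SE 0.08, adjusted p = 0.794). Psmd3, Psmd6 and Psmd12 had log2 fold changes of 0.08 to 0.18 and did not pass the threshold.

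The dedicated core chaperones rose in 3 of 4 cases. Psmg2, which encodes PAC2, measured 21.7, 22.1 and 19.3 FPKM in Ctrl against 39.1, 28.3 and 32.8 FPKM in cKO hearts (log2 fold change 0.63, SE 0.12, adjusted p = 0.00975). Its partner in alpha ring assembly, Psmg1 (PAC1), reached 9.48, 11.9 and 10.2 FPKM in the control group and 15.9, 13.7 and 15.9 FPKM in the knockout group (log2 fold change 0.49, SE 0.10, adjusted p = 0.0126). For both genes the cKO hearts were all above the Ctrl hearts. Psmg4 (PAC4) had 18.2, 17.9 and 16.7 FPKM across Ctrl and 31.8, 25.5 and 26.0 FPKM across cKO replicates, likewise without overlap (log2 fold change 0.62, SE 0.10, adjusted p = 0.00504). Psmg3 (PAC3), which pairs with PAC4, was expressed at a far lower level, 0.907, 0.731 and 1.07 FPKM in Ctrl and 1.33, 0.903 and 0.989 FPKM in cKO hearts. Its groups overlapped (log2 fold change 0.12, SE 0.11, adjusted p = 0.440). Pomp, the chaperone that matures the beta ring, was measured as a gene outside the members. It measured 19.1, 22.3 and 17.5 FPKM in Ctrl against 20.002, 18.9 and 19.4 FPKM in cKO hearts (log2 fold change -0.01, SE 0.10, adjusted p = 0.956).

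Of the 3 base chaperones, which bind the ATPases during assembly, 1 rose. Psmd5 reached 2.43, 2.19 and 2.21 FPKM in the control group and 3.83, 2.94 and 2.94 FPKM in the knockout group (log2 fold change 0.36, SE 0.10, adjusted p = 0.0325). It was called under 9 of 14 alternative analyses, and the call was lost with no filter and when any of the Ctrl hearts or cKO replicate 1 was left out (adjusted p up to 0.0980). Psmd10, also known as gankyrin, had 7.36, 7.89 and 8.53 FPKM across Ctrl and 11.7, 9.07 and 9.69 FPKM across cKO replicates. The groups did not overlap, but the adjusted p was 0.0584 (log2 fold change 0.32, SE 0.11), and without cKO replicate 2 it was 0.0386. Psmd9 measured 2.70, 3.10 and 2.94 FPKM in Ctrl against 3.54, 3.02 and 2.93 FPKM in cKO hearts, with overlap (log2 fold change 0.09, SE 0.09, adjusted p = 0.474).

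**Figure D2:**
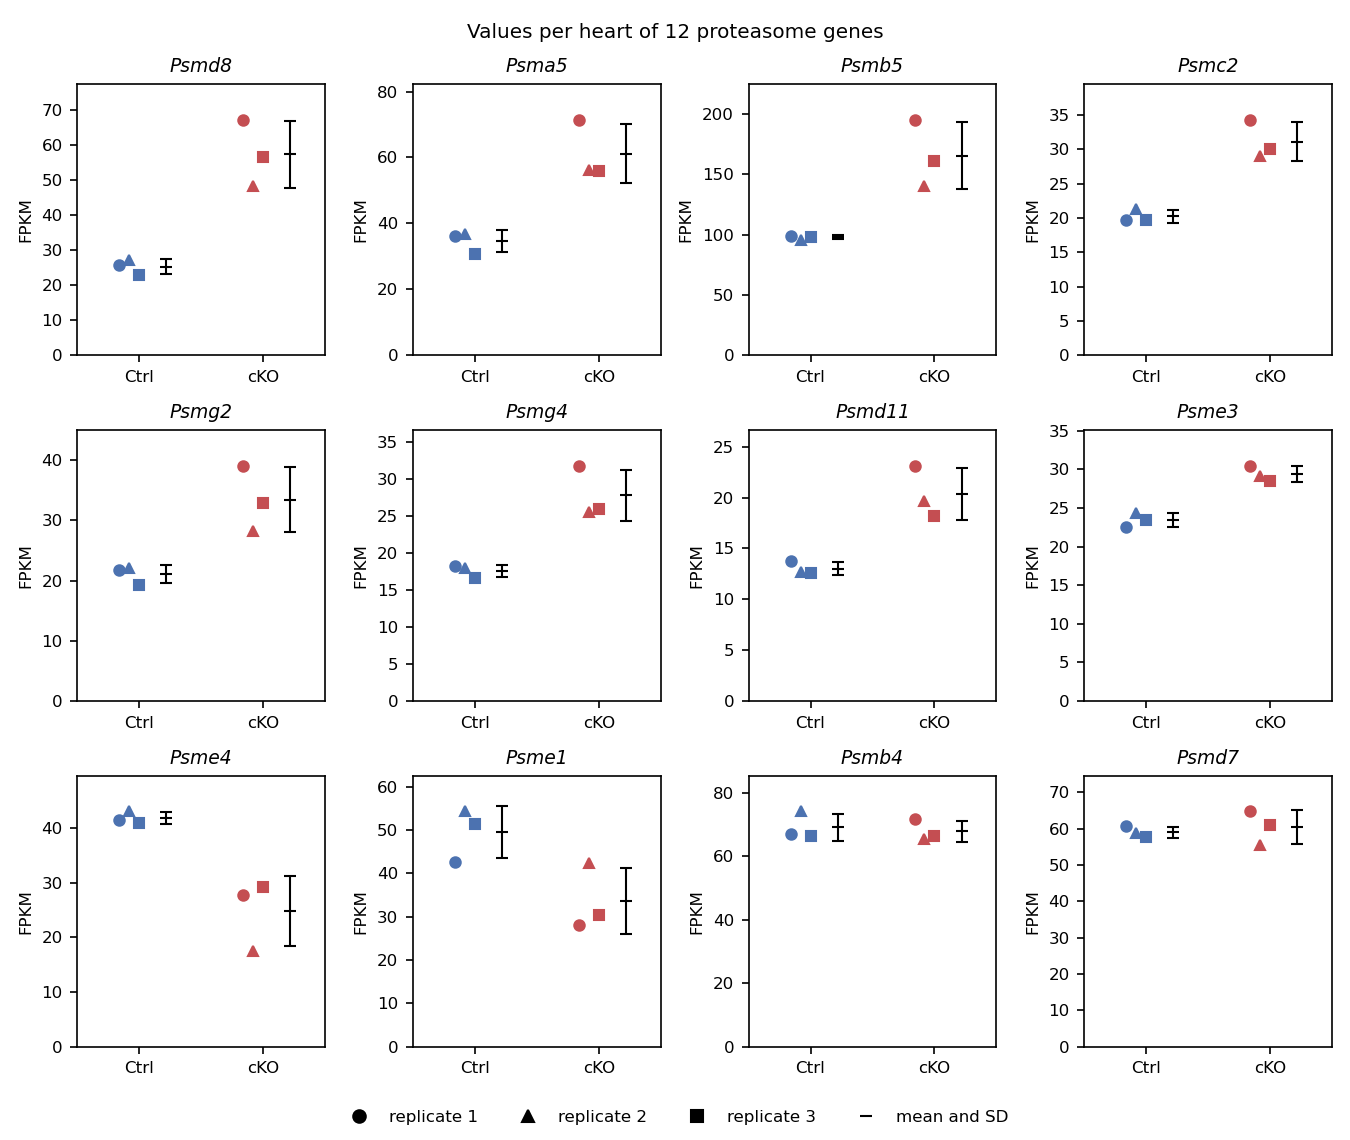
FPKM of 12 members in each heart (y axis, from 0), with Ctrl in blue and cKO in red, symbols for the replicate and a bar for the mean and SD of 3 hearts. Psmd8, Psma5, Psmb5, Psmc2, Psmg2, Psmg4, Psmd11 and Psme3 are separate and higher in cKO, Psme4 and Psme1 are separate and lower, and Psmb4 and Psmd7 overlap.

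The FPKM of the members were also summed by role in each heart. The alpha ring summed to 290 ± 14.6 FPKM in Ctrl and 349 ± 22.4 FPKM in cKO (SD, n = 3), a ratio of 1.20. The beta ring summed to 376 ± 16.1 FPKM in Ctrl and 479 ± 41.1 FPKM in cKO (SD, n = 3), a ratio of 1.28. The ratios were 1.20 for the ATPases, 1.29 for the lid and 1.26 for the base chaperones, all without overlap of the hearts. The core chaperones had a ratio of 1.55, with 50.1 ± 2.67 FPKM in Ctrl and 77.5 ± 9.95 FPKM in cKO (SD, n = 3). The non-ATPases of the base were the exception among the cap groups. They summed to 107, 109 and 103 FPKM in Ctrl and to 130.4, 106 and 119 FPKM in cKO hearts, and replicate 2 lay within the Ctrl range. The immunoproteasome genes summed to 30.7, 32.7 and 25.0 FPKM in Ctrl and to 41.4, 67.5 and 37.9 FPKM in cKO hearts. Differences between the roles were not tested.

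**Figure D3:**
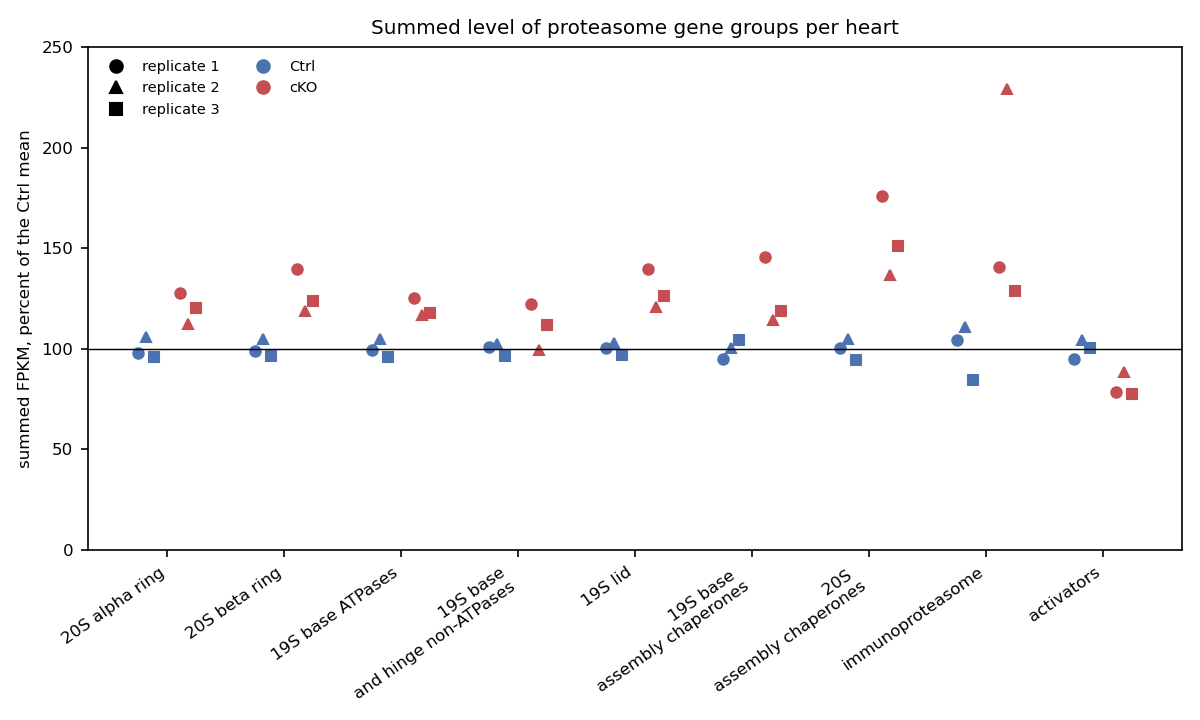
Summed FPKM of each group of members per heart, as a percentage of the Ctrl mean of that group (y axis), with the groups on the x axis, Ctrl in blue, cKO in red and symbols for the replicate. All cKO hearts lie above the Ctrl hearts in 7 of the 9 groups. The non-ATPases overlap, the activators are lower, and cKO replicate 2 is far above the other hearts in the immunoproteasome group (67.5 FPKM).

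The immunoproteasome genes did not move together. Psmb10 (ENSMUSG00000031897, chromosome 8, 105935735 to 105938444, minus strand) reached 22.7, 25.1 and 18.1 FPKM in the control group and 36.8, 54.8 and 32.1 FPKM in the knockout group. It was higher in every cKO heart (log2 fold change 0.85, SE 0.21, adjusted p = 0.0208), and without cKO replicate 2 the log2 fold change was 0.63 (adjusted p = 0.0233). It was not called with no filter or without Ctrl replicate 1 or Ctrl replicate 3 (adjusted p up to 0.0682). Psmb8 had 5.79, 5.59 and 5.44 FPKM across Ctrl and 3.41, 9.97 and 4.55 FPKM across cKO replicates. Replicate 2 was above, and the other 2 cKO hearts were below, all Ctrl hearts, and with 6 hearts no change was called (log2 fold change -0.03, SE 0.31, adjusted p = 0.944). Without replicate 2, Psmb8 was lower in cKO, with a log2 fold change of -0.42 and an adjusted p of 0.0370. Psmb9 had the same order of hearts, with 2.18, 2.08 and 1.42 FPKM in Ctrl and 1.23, 2.73 and 1.33 FPKM in cKO hearts (log2 fold change -0.10, SE 0.21, adjusted p = 0.752). Without replicate 2 its log2 fold change was -0.34 and its adjusted p was 0.112. Psmb9 lies next to Tap1 on the opposite strand and overlaps it, and counting by strand was not stated, so reads in the overlap cannot be assigned with certainty.

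Each immunoproteasome gene was also set against the constitutive gene it replaces. The ratio of Psmb8 to Psmb5, in FPKM, was 0.0583, 0.0582 and 0.0554 in Ctrl and 0.0175, 0.0711 and 0.0282 in cKO hearts. The ratio of Psmb9 to Psmb6 was 0.0329, 0.0283 and 0.0222 in Ctrl and 0.0141, 0.0338 and 0.0171 in cKO hearts. In both ratios cKO replicate 2 was the highest of the 6 hearts and the other 2 cKO hearts were the lowest. The ratio of Psmb10 to Psmb7 was 0.790, 0.780 and 0.601 in Ctrl and 1.10, 1.84 and 1.03 in cKO hearts, above the Ctrl range in each. In FPKM, Psmb10 was the only gene of the 3 with a level of the order of its constitutive counterpart. This comparison between genes depends on the gene lengths of the deposited table. They were 2736 bases for Psmb8 and 899 for Psmb5, 3659 for Psmb9 and 1872 for Psmb6, and 1705 for Psmb10 and 3421 for Psmb7. The reads of these pairs in Ctrl replicate 1 were 302 and 1701, 152 and 2363, and 739 and 1876.

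**Figure D4:**
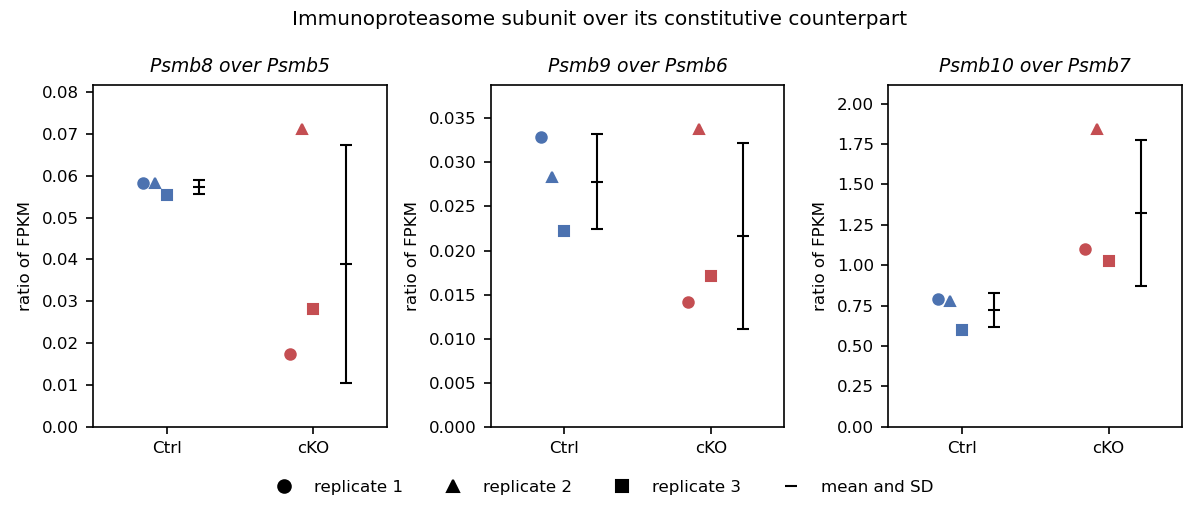
Ratio of FPKM of each immunoproteasome gene to its constitutive counterpart (y axis, from 0) per heart, with Ctrl in blue, cKO in red, symbols for the replicate and a bar for the mean and SD of 3 hearts. Replicate 2 is the highest heart in all 3 panels, and cKO replicates 1 and 3 lie below the Ctrl hearts in the first 2 panels and above them in the third.

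Activators open the gate of the core in place of the 19S cap, and they held the only members that fell. Psme4 (ENSMUSG00000040850, chromosome 11, 30771726 to 30880361, plus strand), which encodes PA200, measured 41.5, 43.0 and 40.9 FPKM in Ctrl against 27.7, 17.5 and 29.2 FPKM in cKO hearts. All cKO hearts were below the Ctrl hearts, and replicate 2 was the lowest (log2 fold change -0.76, SE 0.18, adjusted p = 0.0190). Without replicate 2 the log2 fold change was -0.54 and the adjusted p was 0.00513. It was not called with no filter or when any of the Ctrl hearts was left out (adjusted p up to 0.0614). Psme1, which encodes the alpha subunit of the interferon-induced activator PA28, reached 42.7, 54.3 and 51.4 FPKM in the control group and 28.0, 42.4 and 30.5 FPKM in the knockout group. The highest cKO heart, replicate 2, came close to the lowest Ctrl heart (log2 fold change -0.56, SE 0.17, adjusted p = 0.0411). Without it the log2 fold change was -0.73 and the adjusted p was 0.00828. It was called under 8 of 14 alternative analyses. The call was lost with no filter and with scaling without mtDNA-encoded genes. It was also lost without Ctrl replicate 2, Ctrl replicate 3, cKO replicate 1 or cKO replicate 3 (adjusted p up to 0.1226). Psme1 overlaps Emc9 on the opposite strand.

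Psme2, the gene of the beta subunit of PA28, was not called with or without cKO replicate 2. It had 19.2, 23.0 and 20.04 FPKM across Ctrl and 19.02, 23.9 and 18.2 FPKM across cKO replicates (log2 fold change -0.03, SE 0.12, adjusted p = 0.865). Without replicate 2 its log2 fold change was -0.15 and its adjusted p was 0.289. Psme2b, a near copy of Psme2 between which reads can be split, measured 24.1, 20.6 and 23.4 FPKM in Ctrl against 18.6, 27.1 and 16.6 FPKM in cKO hearts. Its groups overlapped through replicate 2 (log2 fold change -0.15, SE 0.17, adjusted p = 0.548), and without that heart its adjusted p was 0.0436 at a log2 fold change of -0.34. Psme3, which encodes the nuclear activator PA28 gamma, rose instead, from 22.6, 24.3 and 23.4 FPKM in Ctrl to 30.5, 29.2 and 28.4 FPKM in cKO hearts (log2 fold change 0.31, SE 0.07, adjusted p = 0.0138), and was not called without Ctrl replicate 1 (adjusted p = 0.0534). The sum of the 5 activator genes was 158 ± 7.65 FPKM in Ctrl and 129 ± 9.64 FPKM in cKO (SD, n = 3). This was the only group whose sum was lower in every cKO heart than in every Ctrl heart.

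Without cKO replicate 2, 20 members were called higher and 4 lower, against 15.4% and 15.5% of all genes. Of the 22 members called with all hearts, 20 were called again. Psmb3 and Psmb6 were lost, Psmd4 and Psmd10 were gained as higher, and Psmb8 and Psme2b were gained as lower.

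Some genes of MHC class I presentation, which use the peptides made by the immunoproteasome, set the same heart apart, and others did not. B2m, the light chain of MHC class I, reached 248, 270.2 and 263 FPKM in the control group and 192, 1014 and 211 FPKM in the knockout group. H2-K1 had 63.0, 53.1 and 65.9 FPKM across Ctrl and 54.2, 307 and 62.4 FPKM across cKO replicates. Replicate 2 was 5.03 times the mean of the other cKO hearts for B2m, 5.27 times for H2-K1, 3.54 times for H2-D1 and 2.51 times for Psmb8. The peptide transporter gene Tap1 measured 1.695, 1.52 and 1.25 FPKM in Ctrl against 0.712, 3.13 and 0.958 FPKM in cKO hearts. Of 12 genes on this list, 11 were tested, and 1 was higher and 0 were lower, against 16.3% and 17.0% of all genes. The higher gene was Pdia3, a disulfide isomerase of the loading complex (log2 fold change 0.34, adjusted p = 0.0170). By limma 0 genes of the list were lower at an unadjusted p below 0.05, and by voom 0 were lower. The other tested genes, Tap2, Tapbp, H2-D1, Erap1, Irf1, Calr and Canx, had adjusted p of 0.154 or more, and Nlrc5, the activator of MHC class I transcription, was below the filter with 1.32 FPKM in cKO replicate 2 and 0.200 to 0.426 FPKM in the others. Without cKO replicate 2, B2m, Tap1 and Tap2 were lower in cKO, with log2 fold changes of -0.37, -0.44 and -0.48 and adjusted p of 0.0237, 0.0365 and 0.0234. Pdia3 stayed higher (log2 fold change 0.30, adjusted p = 0.0358). The other tested genes of the list were not called, among them H2-K1 (log2 fold change -0.05, adjusted p = 0.755). Of all genes, 15.4% were higher and 15.5% lower without cKO replicate 2. Markers of lymphocytes also stood apart in this heart. The sum of 7 such genes was 2.64 FPKM in cKO replicate 2 and 0.293 to 0.573 FPKM in the other hearts, with Nkg7 at 1.69 FPKM and the B cell gene Ms4a1 at 0 in all hearts. Their part in these values was not tested.

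**Figure D5:**
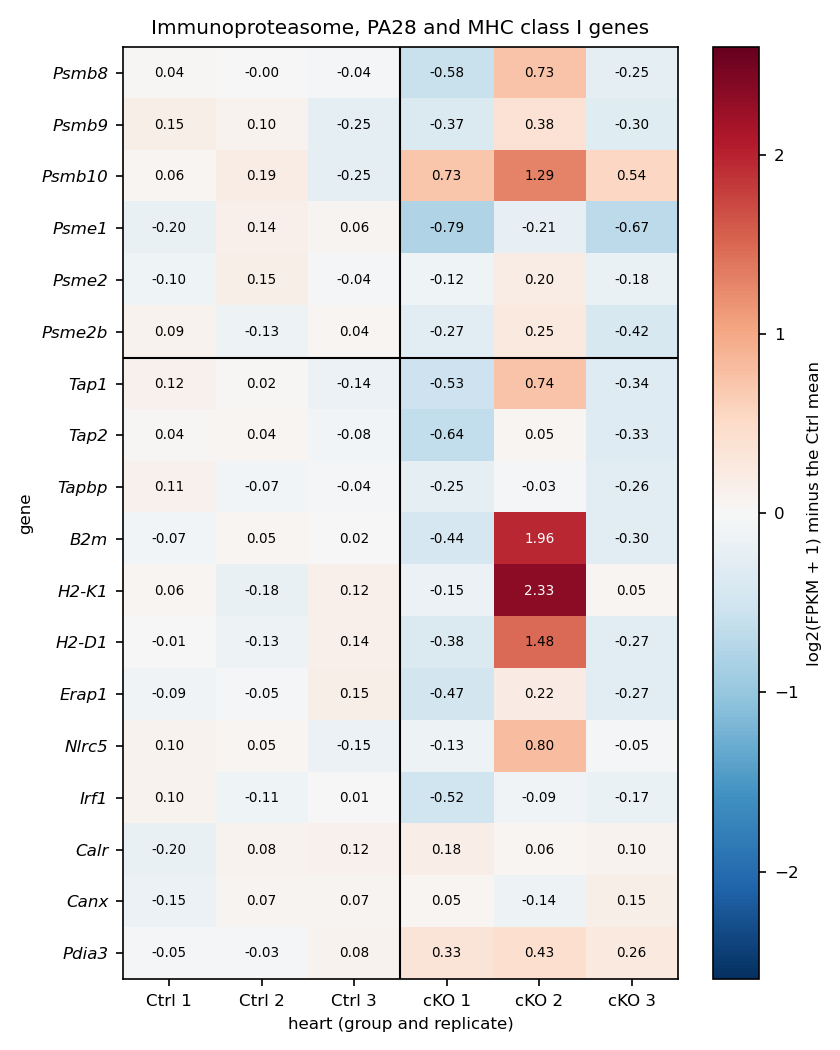
Log2(FPKM + 1) minus the Ctrl mean (colour and printed number) of the immunoproteasome, PA28 and MHC class I genes (y axis) in each heart (x axis). The column of cKO replicate 2 is red for most genes, up to 2.33 for H2-K1, whereas cKO replicates 1 and 3 are blue for Psmb8, Psmb9, Psme1, Tap1 and B2m, and Psmb10 is red in all 3 cKO hearts.

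Genes for proteins that associate with the proteasome mostly did not pass the threshold. This also held for all genes tested, of which 16.3% were higher and 17.0% lower. Of 11 associated genes, 10 were measured and Paaf1 was not analysed here. By limma 0 were higher at the adjusted threshold and 1 (Txnl1) at an unadjusted p below 0.05, and by voom 0 were higher. Only Zfand5, which encodes a protein that stimulates the proteasome, was lower, from 19.1, 21.8 and 23.1 FPKM in Ctrl to 12.3, 14.6 and 15.6 FPKM in cKO hearts (log2 fold change -0.56, SE 0.11, adjusted p = 0.00999). The ubiquitin receptor gene Adrm1 and the small lid gene Sem1 had log2 fold changes of 0.17 and 0.22, with adjusted p of 0.233 and 0.159. Txnl1, a redox protein of the cap, had 0.28 (adjusted p = 0.0768). The proteasome-bound deubiquitinase genes Uchl5 and Usp14 had 0.21 and 0.07, the ubiquitin ligase gene Ube3c had 0.22, and Ecpas and Akirin2 had -0.08 and 0.04, all short of the threshold.

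Of 9 listed genes with a part in the control of proteasome genes, 1 was higher and 1 lower, against 16.3% and 17.0% of all genes. Nfe2l1, which encodes the factor Nrf1 that induces subunit genes when proteasome activity is low, reached 140.2, 144 and 128 FPKM in the control group and 144, 130.2 and 147 FPKM in the knockout group. The groups overlapped throughout (log2 fold change 0.03, SE 0.08, adjusted p = 0.808). Nfe2l2 (Nrf2) had a log2 fold change of -0.02 (adjusted p = 0.902). Ddi2 and Ngly1, which process the Nrf1 protein, had -0.08 and 0.05, and Vcp, the segregase that extracts it from the membrane, had 0.18 (adjusted p = 0.133). These values concern transcript levels, and Nrf1 and Nrf2 are known to be regulated mainly as proteins. Of the 9 genes on this list, Mafg, a partner of both factors, was higher (log2 fold change 0.34, adjusted p = 0.0111). Keap1, the adaptor that marks Nrf2 for degradation, was lower, with 14.5, 14.8 and 14.4 FPKM in Ctrl and 11.1, 10.3 and 11.7 FPKM in cKO hearts (log2 fold change -0.37, SE 0.07, adjusted p = 0.00884). Maff and Mafk had -0.06 and 0.11 and were not called.

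Upstream of the proteasome, 4 of the 10 ubiquitin genes reported here were higher and 1 was lower, against 16.3% and 17.0% of all genes. The list was chosen with earlier results known and is not complete. The polyubiquitin gene Ubb measured 325, 294 and 275 FPKM in Ctrl against 319, 211 and 266 FPKM in cKO hearts and was not called (adjusted p = 0.396). The ubiquitin fusion gene Rps27a rose by 0.99 on the log2 scale and was at 102 FPKM in cKO replicate 2, but its adjusted p was 0.0597 without that heart. Rps27a was called under 9 of 14 alternative analyses (adjusted p up to 0.1023). Of the shuttle factors, which carry ubiquitinated proteins to the cap, Rad23b and Ubqln1 rose by 0.55 and 0.44. Ubqln2 fell by 0.43 on the log2 scale (adjusted p = 0.00609). Of the activating enzymes, Uba6 was higher (log2 fold change 0.35, adjusted p = 0.0209) and Uba1 was not called (0.23, adjusted p = 0.0538). Uba6 had a mean of 1.08 FPKM in Ctrl hearts and was called under 10 of 14 alternative analyses (adjusted p up to 0.0730). Ubqln4, Ufd1 and Nploc4 had log2 fold changes of 0.03 to 0.21 and were not called.

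The upstream sequence of the members was searched for 5 motifs of factors that act on proteasome, stress or interferon-induced genes. The window was the 250 bases before the start of each gene in RefSeq (build GRCm38.p6), on both strands, and 42 of 50 members had an entry. Members were counted by gene, with a match in any window of the gene, and the background was counted by window. TGACNNNGC is the core of the antioxidant response element bound by Nrf1 and Nrf2. It occurred in 5 of the 42 members (11.9%), namely Psmb5, Psmb6, Psmc6, Psmd9 and Psmd12, and in 10.2% of all 32851 windows. CCAAT, the NF-Y motif, occurred in 15 (35.7%) against 33.8%. GAAANNGAA, an interferon response motif, occurred in 3 (7.14%) against 7.13%, and not in the windows of Psmb8, Psmb9 or Psmb10. TGATGNAA, the amino acid response motif, occurred in 1 (Psmd13) against 3.45%, and CACGTG, the E-box bound by Myc and related factors, in 4 (9.52%) against 6.02%. A match only describes these letters in this window. The following sequences show the 3 members called higher that hold TGACNNNGC, and for contrast the members with the largest rise (Psmd8) and the largest fall (Psme4), which held none of the 5 motifs. They are written 5′ to 3′ on the strand of the gene, without bases inside the gene as the deposited table places it, with the match in capitals. It begins 47 bases before the RefSeq start in Psmb5, 9 bases before it in Psmb6 and 227 bases before it in Psmc6, where it lies on the opposite strand, and no match overlaps another motif.
Psmb5 (chr14:54618023-54618245, minus strand): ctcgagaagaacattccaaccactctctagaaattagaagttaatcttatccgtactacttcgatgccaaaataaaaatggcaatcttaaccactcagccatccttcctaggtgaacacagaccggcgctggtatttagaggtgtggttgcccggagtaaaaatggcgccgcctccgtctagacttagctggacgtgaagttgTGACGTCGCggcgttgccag
Psmb6 (chr11:70525107-70525356, plus strand): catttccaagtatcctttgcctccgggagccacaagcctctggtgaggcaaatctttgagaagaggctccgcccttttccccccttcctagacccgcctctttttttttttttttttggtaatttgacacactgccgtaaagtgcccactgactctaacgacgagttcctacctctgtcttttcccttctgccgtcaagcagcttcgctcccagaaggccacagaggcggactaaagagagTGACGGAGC
Psmc6 (chr14:45329574-45329787, plus strand): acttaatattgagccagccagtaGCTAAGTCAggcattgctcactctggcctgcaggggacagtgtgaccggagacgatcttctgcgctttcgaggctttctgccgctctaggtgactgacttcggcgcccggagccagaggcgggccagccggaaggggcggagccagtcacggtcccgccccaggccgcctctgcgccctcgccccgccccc
Psmd8 (chr7:29180702-29180923, minus strand): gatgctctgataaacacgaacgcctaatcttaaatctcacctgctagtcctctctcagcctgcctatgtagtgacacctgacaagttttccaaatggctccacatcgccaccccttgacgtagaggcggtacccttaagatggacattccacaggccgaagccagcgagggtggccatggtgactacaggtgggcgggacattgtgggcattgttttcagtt
Psme4 (chr11:30771525-30771725, plus strand): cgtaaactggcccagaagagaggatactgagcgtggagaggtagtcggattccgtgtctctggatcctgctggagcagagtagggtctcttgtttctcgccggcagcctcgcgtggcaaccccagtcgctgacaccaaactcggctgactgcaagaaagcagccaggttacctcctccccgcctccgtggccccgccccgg

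The remaining members were expressed at low levels or are no subunits. Psma8, the testis form of the alpha4 subunit, had 0.341, 0.454 and 0.806 FPKM in Ctrl and 0.523, 0.455 and 0.329 FPKM in cKO hearts, just under the filter. Psmb11, the catalytic subunit of the thymus, had 1 read in cKO replicate 1 (0.0123 FPKM) and 0 reads in the other 5 hearts, where a count of 0 allows, at 3 reads per library, up to 0.0249 to 0.0328 FPKM, for counting error only. Psmf1, named as an inhibitor, reached 3.15, 2.90 and 2.599 FPKM in the control group and 2.96, 3.34 and 3.39 FPKM in the knockout group (log2 fold change 0.13, SE 0.09, adjusted p = 0.298). Psmc3ip, which shares the symbol pattern but encodes a recombination protein, was estimated at -0.02 on the log2 scale (SE 0.08, adjusted p = 0.875).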

How the data were processed

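Poly-A selected RNA of 6 mouse hearts, 3 Ctrl and 3 cKO, was sequenced as paired-end reads. The authors aligned the cleaned reads with HISAT2 2.0.5, counted them per gene with featureCounts 1.5.0-p3 and computed the deposited FPKM values from read counts and gene length. The submitters' processing notes name mm9 as genome build and DESeq2 1.16.1. Of 54409 gene identifiers shared with GENCODE M21, 53499 had the GRCm38 coordinates, as did 48 of the 50 members, so coordinates are those of the table. The gene length column of the table was used as an other, gene-level value, and the strand used in counting was not given in the sources used here. Groups and replicate numbers were taken from the sample titles.

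Reads were worked back from FPKM and gene length, and 100% of values came out whole within 0.01 of a read. The library size implied by the values was 0.913 to 0.980 times the recovered total in Ctrl and 1.06 times in cKO hearts. No libraries were duplicates. The difference between groups was tested on log2(FPKM + 1), which understates changes of low genes, by a two-sided moderated linear model (limma 3.58.1 on R 4.3.3, with an abundance trend in eBayes), for the 12944 genes whose mean reached 0.5 FPKM, with Benjamini-Hochberg adjustment over all of them at 0.05. p-values reflect the spread between these hearts. In simulated tables (12923 to 12953 genes, 3 hearts per group) 89.0% of genes changed 2-fold and 99.4% changed 4-fold were recovered, with 6.09% false calls. The simulation changed 200 genes per table, used 1 common dispersion (0.008) and had no heart that stood apart. Its rates need not hold for the measured hearts, where more genes were called and most member changes were below 2-fold.

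The members and the gene lists were chosen with earlier results of these data known, and no list was tested as a set. Members named in full were, in each role, the 2 with the largest and the 1 with the smallest absolute change among those tested, and all immunoproteasome, activator and assembly genes. Others are given by counts and ranges or singly where a result turned on them, after their values were seen. The listed genes outside the members were associated, control, ubiquitin and MHC class I genes. Some genes first placed on the last pair of lists are not reported here. Alternatives covered the pseudocount, the filter, the scaling, the eBayes trend, voom on recovered reads, a replicate block and leaving out each heart. The same-numbered hearts did not deviate together (correlations of deviations -0.055, 0.174 and -0.015), so replicate numbers were not treated as pairs. Members that overlap another expressed gene were Psma2, Psma3, Psmb9, Psmc3, Psmc3ip, Psmd13 and Psme1. Protein sequences were not used here.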

Additional observations from a re-analysis of the deposited data

How the results depend on the processing

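Of 671 member results under 14 alternatives (fewer for Psmg3, which a stricter filter removed), 602 kept their direction and side of the threshold, 42 lost it, 9 crossed it and 18 changed sign, none of the last in a called member. Of the 22 called members, 13 (Psma3, Psma5, Psmb1, Psmb5, Psmc2, Psmc5, Psmd8, Psmd11, Psmd13, Psmd14, Psmg1, Psmg2 and Psmg4) were called under all 14 alternatives. Members called lower numbered 0 with no filter, which adds low genes to the adjustment, and 1 when libraries were scaled without mtDNA-encoded genes. That scaling moved the median of all genes from -0.02 to 0.05 and the split of all genes from 2110 higher and 2205 lower to 2649 and 1621, with 24 members higher. The log2 ratios of summed FPKM were then 0.36 for the alpha ring, 0.35 for the ATPases and 0.46 for the lid. They were 0.41 for the 20S core, 0.37 for the 19S cap and 0.39 for all 31 constitutive members. Fold changes near 0 turned positive in Psmb4 (0.062), Psmb8 (0.040), Psme2 (0.054) and Psmc3ip (0.030), and Psmb4 also under median-of-ratios scaling (0.0010).

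Leaving out each heart in turn gave 13 to 20 members higher, with 13 without Ctrl replicate 1, and 0 to 4 lower. No member was lower without Ctrl replicate 2 or 3, 1 was without Ctrl replicate 1, cKO replicate 1 or cKO replicate 3, and 4 were without cKO replicate 2. Over all genes the ranges were 1400 to 1993 higher, lowest without Ctrl replicate 3, and 1434 to 2006 lower, with 1434 without Ctrl replicate 2 and 1450 without Ctrl replicate 3. Log2 fold changes that changed sign ranged from -0.064 to 0.025 for Psmb4, -0.42 to 0.24 for Psmb8, -0.34 to 0.036 for Psmb9, -0.0079 to 0.13 for Psmd1, -0.020 to 0.089 for Psmd7, -0.15 to 0.042 for Psme2 and -0.066 to 0.012 for Psmc3ip. The adjusted p over all alternatives ranged from 0.0051 to 0.0614 for Psme4, from 0.0083 to 0.1226 for Psme1 and from 0.0082 to 0.0682 for Psmb10. With a replicate block, 17 members were higher and 2 lower, and 1874 genes were higher and 1982 lower. Beyond these counts the causes were not tested.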
